A study of Canis lupus familiaris with 32 samples.

Results

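The 42 genes described here are those on the canine array whose annotated symbol names a leukocyte surface antigen of the CD series, a dog leukocyte antigen (DLA, the major histocompatibility complex of the dog), a C1q chain, an Fc receptor, a subunit of the phagocyte oxidase, or 1 of a short set of macrophage and antigen presentation genes (B2M, LYZ, TYROBP, AIF1, CSF1R, TAP1, TAP2, CTSS and LAPTM5). They are 42 of the 5246 genes with a symbol, and they were measured by 53 probes, with 33 genes on 1 probe each. By role they comprise 5 class I genes (B2M, DLA88, DLA-79, TAP1, TAP2), 5 class II genes (DLA-DRA, DLA-DQA1, DLA-DQB1, DLA-DOA and the protease CTSS), 5 C1q and Fc receptor genes, the oxidase subunit CYBB, 10 myeloid genes, the pan-leukocyte gene CD48, the T cell genes CD3D and CD3E, and 13 other genes that carry a CD number. The tumors were 32 primary osteosarcomas of pet dogs of several breeds and both sexes, none treated before surgery and each frozen at operation. The short survivors (SS, 16 dogs) lived less than 6 months and the long survivors (LS, 16 dogs) lived at least 6 months. RNA of each tumor was amplified and hybridized on 1 dual-color array against a pool of RNA from all 32 tumors, and in each survival group 8 tumors were labeled with Cy5 and 8 with Cy3. Ages are not used here, and some dogs received chemotherapy after surgery.

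Class I molecules present peptides made inside the cell: a DLA heavy chain pairs with beta-2-microglobulin (B2M), and the TAP1 and TAP2 transporter carries peptides to it. Class II molecules are alpha and beta chain pairs that dendritic cells, macrophages and B cells load with peptides from engulfed protein, after CTSS has trimmed the invariant chain. Osteosarcoma contains macrophages, dendritic cells and T cells among the malignant osteoblasts, and osteoclasts derive from the same CSF1R-dependent lineage as macrophages. The values are log2 ratios of tumor over pool, so a gene can be compared between tumors but its level cannot be set against that of another gene, and the ratios do not tell whether a gene was abundant. In whole tumor tissue, fewer cells of a type and less RNA per cell cannot be told apart.

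The array medians lay between -0.03 and 0.02, and the SD over probes ranged from 0.474 to 0.762. Many genes differed between the dye orientations, and the means of the Cy5 and of the Cy3 arrays had a correlation of -0.658 across probes. The reference pool held all tumors and each tumor carried a single dye, so this correlation does not separate the dye from the tumors. Values are therefore also given after subtraction of the mean of the 16 arrays with the same orientation, called centered values below. In the RefSeq annotation of the dog, 39 of the 42 genes were matched, and DLA88, AIF1, DLA-DRA, DLA-DQA1, DLA-DQB1, TAP2, TAP1 and DLA-DOA followed each other in this order on a single chromosome, which also carries CD109 and CD164. PTPRC, which encodes the leukocyte antigen CD45, the mannose receptor MRC1, the scavenger receptor MSR1 and the class II invariant chain CD74 had no probe with a symbol, so the most widely used leukocyte marker could not be read.

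The 42 genes differed widely among the tumors. The median SD of the centered values was 0.505 for these genes and 0.266 for all 19728 features (5246 genes and 14482 probes without a symbol). Of the 42 genes, 39 exceeded the median of all features and 15 lay above the 90th percentile of all features, an SD of 0.586. The class II genes had the highest median SD among the groups of more than 1 gene, at 0.933, followed by class I at 0.576 and the myeloid genes at 0.559. The T cell genes CD3D (0.297) and CD3E (0.213) varied about as much as an average feature.

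**Figure D1:**
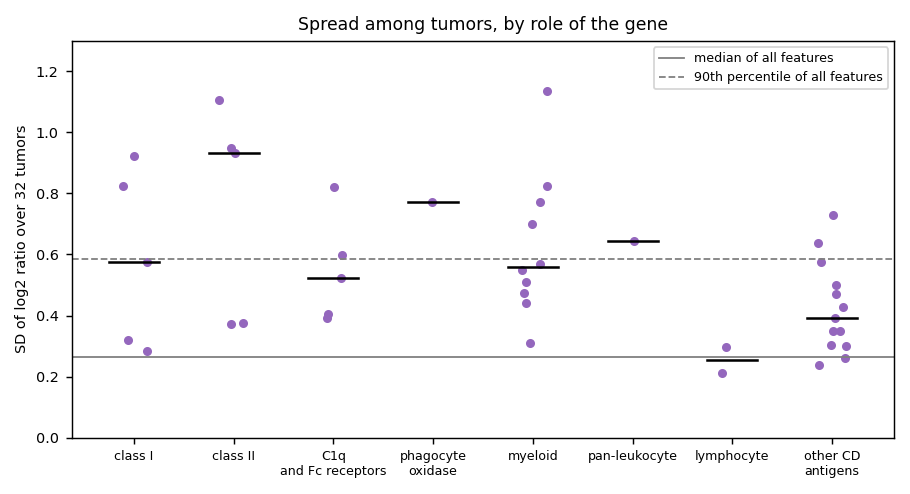
SD of the centered log2 ratio over 32 tumors for each of the 42 genes (points), by role, with the median of each role as a black bar. The solid gray line marks the median of all 19728 features (0.266) and the dashed line their 90th percentile (0.586). Most class II, class I and myeloid points lie above the solid line, and the T cell points lie close to it.

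Among the class II genes, DLA-DRA, the alpha chain of the DR molecule, ranged from -2.50 in tumor 3 to 1.11 in tumor 4 among the SS tumors, with a median of -1.02. In the LS tumors it ranged from -1.36 in tumor 30 to 2.32 in tumor 19, with a median of -0.35. The SS and LS ranges overlapped over most of their length. DLA-DQB1, the beta chain of the DQ molecule, ran from -2.07 (tumor 13) over a median of -0.64 to 1.78 (tumor 4) in SS and from -1.37 (tumor 27) over -0.41 to 1.95 (tumor 19) in LS. CTSS had medians of -0.42 in SS and -0.31 in LS and reached 2.61 and 0.99, with its lowest and highest values in tumors 3 and 4 (SS) and in tumors 30 and 19 (LS). In these uncentered ratios the same tumors stood at the ends of all 3 distributions, apart from the lowest DLA-DQB1 values. After centering, tumor 3 was lowest in SS, and tumors 30 and 19 were lowest and highest in LS, for all 3 genes. Tumor 4 was then highest in SS for DLA-DQB1 (1.62) and CTSS (2.81). For DLA-DRA, tumor 11 (1.65) exceeded tumor 4 (1.09). DLA-DQA1, the alpha chain that pairs with DLA-DQB1, and DLA-DOA, a modulator of peptide loading, varied less, with centered SDs of 0.371 and 0.377.

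Among the class I genes, B2M ranged from -2.38 (tumor 13) to 1.68 (tumor 4) around a median of -0.0046 in SS, and from -1.41 (tumor 18) to 1.36 (tumor 19) around -0.48 in LS. The heavy chain gene DLA88 ranged from -2.13 (tumor 12) to 1.51 (tumor 4) around 0.09 in SS, and from -1.39 (tumor 22) to 1.71 (tumor 31) around -0.52 in LS. The lowest SS tumors lay below every LS tumor for both genes. TAP1 was likewise highest in tumors 4 (1.69) and 31 (1.33). DLA-79, a class I gene outside the DLA region, had a centered SD of 0.284 and ranged only from -0.86 to 0.70 over the 32 tumors.

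Of the myeloid genes, LYZ (lysozyme) had the largest centered SD of all 42 genes, 1.13. It ranged from -2.06 (tumor 13) over a median of -0.93 to 3.05 (tumor 2) in SS and from -1.76 (tumor 30) over -0.91 to 1.09 (tumor 19) in LS. CSF1R, the receptor for the macrophage growth factor, lay between -1.42 and 3.11 in SS and between -1.27 and 0.81 in LS, with medians of -0.28 and -0.39. CYBB, the membrane subunit of the phagocyte oxidase, lay between -1.38 and 3.21 in SS, but only between -0.89 and 0.05 in LS. The maxima of CSF1R and CYBB both came from tumor 4. LAPTM5, a lysosomal protein of blood cells, AIF1, a macrophage marker, CD86, a costimulatory ligand of T cells, and TYROBP, a signaling adapter of myeloid receptors, were also highest in tumor 4, at 2.58, 2.24, 2.38 and 1.92.

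Tumor 4, an SS tumor labeled with Cy5, held the highest centered value of its orientation for 20 of the 29 genes assigned to a role, and it exceeded the orientation mean for 28 of them. Tumor 11 (SS) led the Cy3 arrays for 12 of the 29. The lowest centered values came most often from tumor 3 (SS, 11 genes) and tumor 30 (LS, 7 genes) on the Cy5 arrays and from tumor 13 (SS, 12 genes) on the Cy3 arrays. The mean centered value of the 15 myeloid, C1q and Fc receptor genes was 1.51 in tumor 4, 0.69 in tumor 11, 0.65 in tumor 19 (LS) and 0.59 in tumor 2 (SS). It was lowest in tumor 30, at -0.82, and in tumor 3, at -0.64. High and low tumors therefore occurred in both survival groups. Leukocyte genes outside the 42 (13 genes), among them PLEK, LYN, LCP1 and RAC2, had a mean of 0.72 in tumor 4, 0.34 in tumor 11, 0.35 in tumor 19 and 0.86 in tumor 2, against -0.31 in tumor 30 and -0.43 in tumor 3. The mean of 5 osteoblast genes (ALPL, COL1A2, PHEX, SPARC and SPP1) was -0.81 in tumor 4, -1.25 in tumor 11, -0.63 in tumor 2 and 0.50 in tumor 19. Among the tumors with low leukocyte values it was -0.75 in tumor 30, -0.90 in tumor 13 and 0.47 in tumor 3. The osteoblast mean thus took both signs among high and among low tumors. In tumor 30 the mean of 12 skeletal muscle genes was 1.84, the highest of the 32 tumors, and the part of muscle tissue in its low leukocyte values was not tested.

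**Figure D2:**
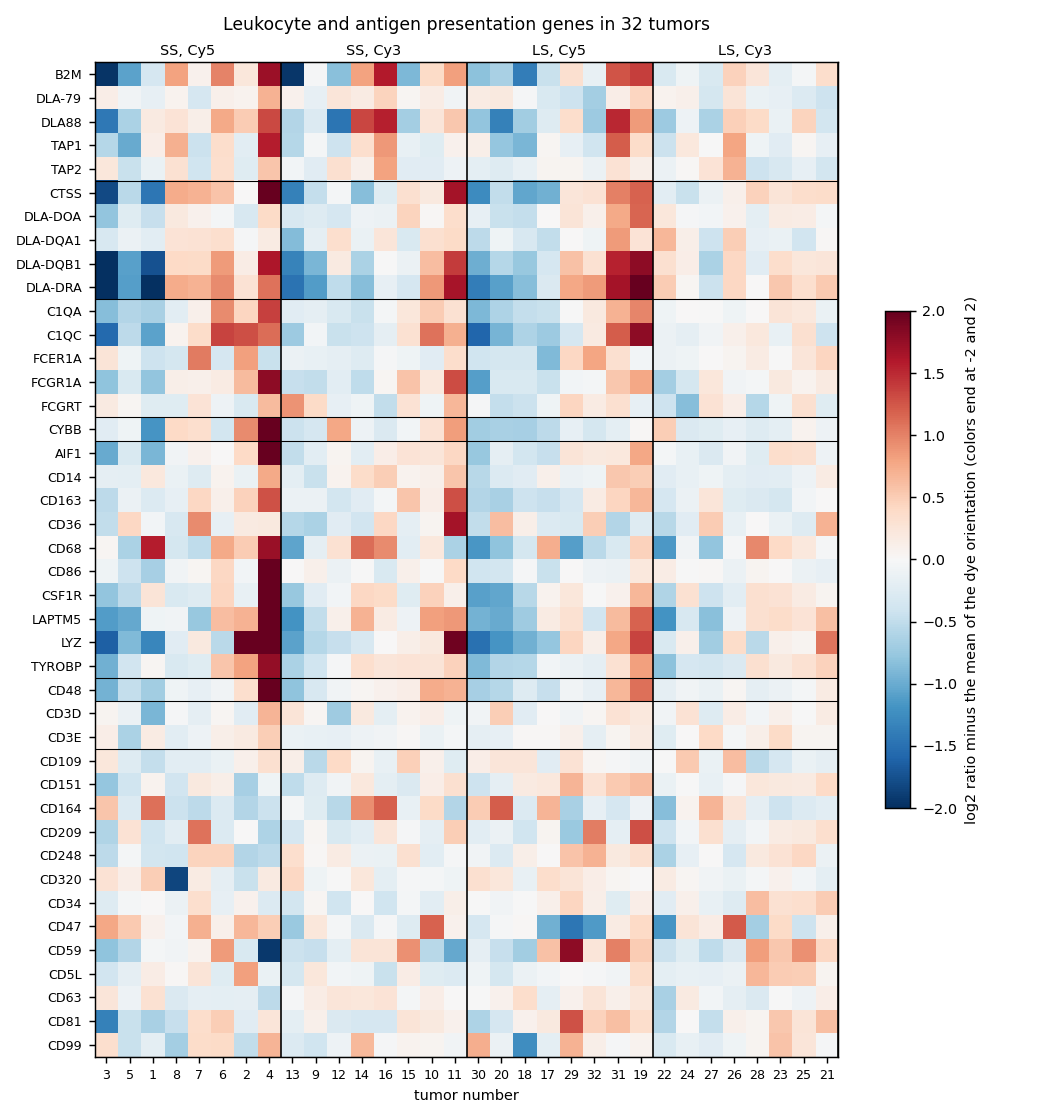
Centered log2 ratio of the 42 genes (rows, grouped by role from class I at the top to the other CD-numbered genes at the bottom) in 32 tumors (columns, by survival group and dye and then by the mean of the 15 myeloid, C1q and Fc receptor genes). Red is above and blue below the mean of the dye orientation. Class II, myeloid and CD48 rows change together from left to right in each block, most clearly on the Cy5 arrays, where tumor 4 is red in most rows, and the lowest block of rows shows no such order.

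The class II, the myeloid and the class I genes each varied together across the tumors. Within each orientation and after removal of the survival group mean, the median correlation between pairs of genes was 0.859 on the Cy5 arrays and 0.642 on the Cy3 arrays for class II, 0.732 and 0.469 for the myeloid genes, and 0.555 and 0.569 for class I. It was lower for the C1q and Fc receptor genes, at 0.346 and 0.317, and the T cell pair had 0.198 and -0.080. The 13 other CD-numbered genes reached 0.062 and 0.142, and all pairs of named genes 0.003 and 0.007. The low median of the 13 genes does not tell whether any single one of them marks leukocytes. These 13 genes were on none of the role lists and are called here by their CD number. Several are widely expressed: CD63, CD81 and CD151 are tetraspanins, CD59 is a complement inhibitor, CD47 is the ligand that restrains phagocytosis, and CD248 marks stromal cells. When tumor 4 was left out, as chosen after seeing its values, the median for the 29 genes assigned to a role fell from 0.592 to 0.477 on the Cy5 arrays. That of the myeloid genes fell from 0.732 to 0.566 and that of class I from 0.555 to 0.445, whereas class II stood at 0.869.

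Pairs of genes were tested by permutation, with 12 pairs in 2 orientations (24 tests over 16 tumors each) and Benjamini-Hochberg adjustment. Some pairs are subunits or partners of a complex, and others are genes of related function whose products do not form a complex. By Pearson's r 18 of the 24 passed at 0.10, and by Spearman's rho 16. Among all pairs of the 29 genes assigned to a role, 60.3% on Cy5 and 30.3% on Cy3 had an r above 0.5. For all pairs of named genes the shares were 5.60% and 5.39%. Whether the 12 pairs were closer than other pairs of these 29 genes was not tested. The adjusted p-values of the closest pairs were near the smallest that 100000 permutations can give. DLA-DRA and DLA-DQB1 were the closest pair, with r = 0.974 and rho = 0.974 on the Cy5 arrays (permutation adjusted p = 3.4e-05 and 4.8e-05) and r = 0.960 and rho = 0.862 on the Cy3 arrays (3.4e-05 and 0.000187). They encode chains of different class II molecules, DR and DQ. Without the 2 arrays farthest from the median of DLA-DRA, r remained 0.960 and 0.908. DLA88 followed its partner B2M with r = 0.912 and rho = 0.918 on Cy5 and r = 0.810 and rho = 0.862 on Cy3 (permutation adjusted p of r = 3.4e-05 and 0.000415), and r was 0.865 and 0.842 without 2 arrays. The C1q chains C1QA and C1QC gave r = 0.942 and 0.854 and rho = 0.953 and 0.806, with permutation adjusted p of r = 3.4e-05 and 0.00018 and with r = 0.963 and 0.768 without 2 arrays.

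B2M and TAP1 (r = 0.818 and 0.752), CSF1R and TYROBP (0.886 and 0.759), DLA-DQA1 and DLA-DQB1 (0.799 and 0.731), DLA-DOA and DLA-DQB1 (0.883 and 0.609) and TAP1 and TAP2 (0.791 and 0.698) passed by r in both orientations. For TAP1 and TAP2 on the Cy3 arrays rho was 0.450 with a permutation adjusted p of 0.118, and r was 0.098 without 2 arrays, so this value rests on those tumors. DLA-DOA and DLA-DQB1 on the Cy3 arrays had rho = 0.491 with a permutation adjusted p of 0.0837. C1QA and TYROBP passed on Cy5 (r = 0.898) but not on Cy3 (r = 0.383, permutation adjusted p = 0.18), and CYBB and CD14 passed on Cy5 by r alone (r = 0.532, rho = 0.374). The difference between the orientations was not tested. B2M with DLA-79 (r = 0.345 and 0.205, permutation adjusted p = 0.225 and 0.472) and CD3D with CD3E (r = 0.198 and -0.080, permutation adjusted p = 0.472 and 0.75) passed in neither orientation. CD3D and CD3E are chains of a single T cell receptor complex, and both varied little. Related DLA transcripts can hybridize to the same cDNA probe, which these values do not separate.

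**Figure D3:**
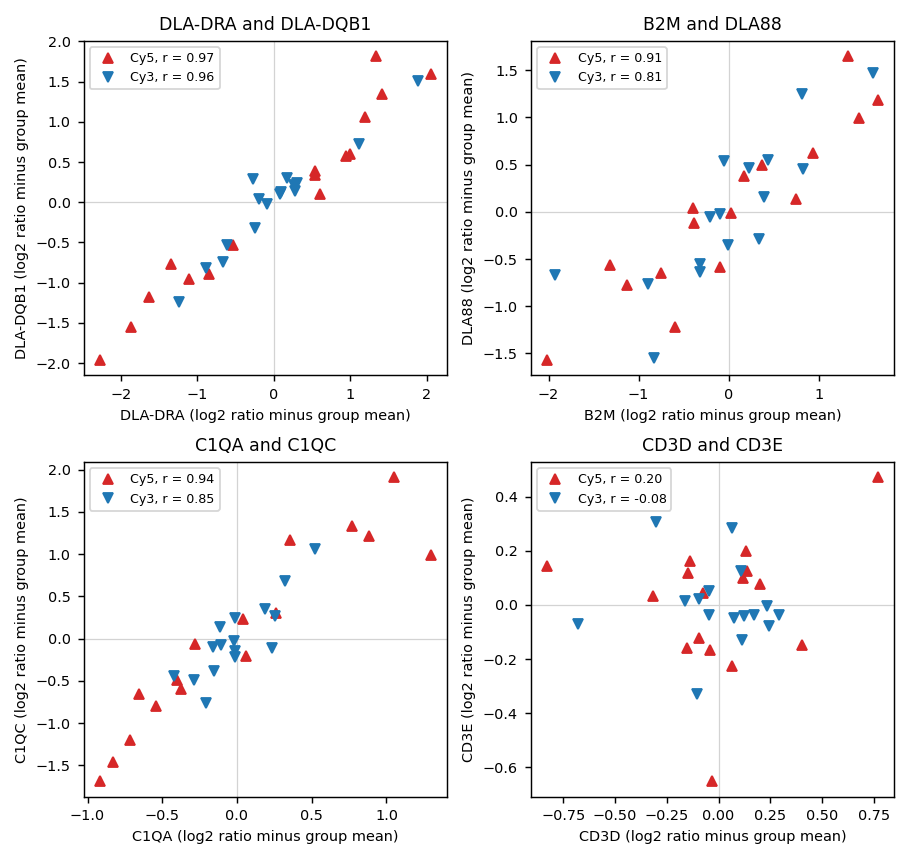
Log2 ratios minus the mean of the survival group within the dye orientation for 4 gene pairs. Each triangle is a tumor (red upward for Cy5, blue downward for Cy3, 16 each), and Pearson's r is given for each orientation. DLA-DRA with DLA-DQB1, B2M with DLA88 and C1QA with C1QC run along a line, whereas CD3D with CD3E form a cloud.

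Likeness to the myeloid mean was measured by Pearson's r of centered values over the 32 tumors, as a description (a gene that belongs to the mean was compared with the mean of the other 14). TYROBP (0.92), CD48 (0.92), FCGR1A, the high-affinity IgG receptor (0.91), AIF1 (0.87), CTSS (0.87) and C1QA (0.87) were most alike. B2M reached 0.74 and DLA-DRA 0.73, while CD36, a fatty acid and thrombospondin receptor, reached 0.26 and CD68, a lysosomal macrophage marker, 0.40. The r of CD36 was 0.07 on the Cy5 and 0.73 on the Cy3 arrays, a difference that was not tested. CD164 (-0.36) and CD63 (-0.24) had negative values, which came from the Cy5 arrays (-0.56 and -0.49), while on the Cy3 arrays they were 0.04 and 0.29. CD320 (-0.15) was more negative on the Cy3 arrays (-0.53) than on the Cy5 arrays (-0.10), and CD59 had -0.07. CD109 had an r of 0.0002, with 0.13 on Cy5 and -0.17 on Cy3. Outside the 42 genes, the most alike were LMO2 (0.920), CCL23 (0.866), CTSC (0.860), CLEC12A (0.843), CCDC50 (0.834) and LOC476396 (0.833). LMO2 is a transcriptional regulator of blood cell development, CCL23 a chemokine, CTSC a lysosomal protease and CLEC12A a myeloid lectin receptor.

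The main question of the study was whether expression differs between short and long survivors. By limma with Benjamini-Hochberg adjustment over all features, 0 of the 42 genes passed an adjusted p of 0.10, beside 0% of the 19728 features. The smallest adjusted p was 0.601 among the 42 genes and 0.392 among all features. At an unadjusted p of 0.05, 3 of the 42 genes passed, beside 6.89% of all features. These were CD151, CD34 and CD59, each lower in SS. The SS and LS values overlapped for each of the 42 genes, and 0% of the 19728 features separated the groups without overlap. The median difference SS minus LS was 0.05 over the 42 genes, 0.02 over the 5246 named genes and -0.003 over all features. Of the 42 genes, 26 were higher and 16 lower in SS, beside 2969 and 2277 of the named genes. The sign was the same in both dye orientations for 28 of the 42, a count whose share over all features is not given here.

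By role, the 10 myeloid genes had positive differences (median 0.20), as did the 5 class I genes (median 0.07), while 3 of the 5 class II genes, both T cell genes and 10 of the 13 other CD-numbered genes had negative ones (medians -0.19, -0.10 and -0.12). None of these genes passed the test, and many of the myeloid genes varied together, so their signs are not independent. The median differences of the myeloid and class I genes were smaller without tumor 4, a setting chosen after seeing the data. Without it, 7 of 10 myeloid genes and 3 of 5 class I genes were higher in SS (medians 0.06 and 0.02), 19 of the 42 genes were higher, and the median over the 42 genes was -0.04. DLA-DRA then differed by -0.60, DLA-DQB1 by -0.45 and CYBB by 0.27, with 0 genes passing.

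CD151, a tetraspanin that associates with laminin-binding integrins, ranged from -0.66 over a median of -0.21 to 0.30 in SS and from -0.29 over 0.12 to 0.79 in LS. Its mean was 0.32 lower in SS (difference -0.32, SE 0.12, 95% interval -0.56 to -0.09, limma p = 0.00916, adjusted p = 0.601). Only 4 of the 16 SS tumors exceeded the LS mean. CD59, which blocks the complement membrane attack complex, ranged from -2.03 (tumor 4) over -0.37 to 0.79 in SS and from -0.80 over 0.22 to 1.68 in LS. The difference was -0.50 (SE 0.24, limma p = 0.0424, adjusted p = 0.694) and 2 of 16 SS tumors exceeded the LS mean, and without tumor 4 it was -0.39 with p = 0.0837. CD34, found on blood progenitors and endothelium, ran from -0.55 over -0.10 to 0.49 in SS and from -0.41 over 0.15 to 0.58 in LS. It differed by -0.21 (SE 0.10, limma p = 0.046, adjusted p = 0.704), and without tumor 4 its p was 0.0544.

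CD47 ran from -1.02 over 0.01 to 0.91 in SS and from -1.46 over -0.15 to 0.95 in LS. Its mean difference was 0.43 (SE 0.21, 95% interval -0.00 to 0.87, limma adjusted p = 0.723). Differences that did not pass at an unadjusted p of 0.05 were also found for DLA-DRA (-0.49, 95% interval -1.31 to 0.33), CYBB (0.49, SE 0.26), CD68 (0.45, -0.08 to 0.97) and CD81 (-0.32, -0.71 to 0.07). CD163, the hemoglobin scavenger receptor of macrophages, differed by 0.29 (-0.04 to 0.62), and C1QC, FCGR1A and CD14 by 0.16, 0.17 and 0.14. For 19 genes the 95% interval lay within 0.5 log2 units of 0 on either side and for 38 within 1, so differences above a log2 value of 1 in either direction were outside the interval of those 38 genes. The intervals of the other 4 (DLA-DRA, DLA-DQB1, CYBB and LYZ) allow more.

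**Figure D4:**
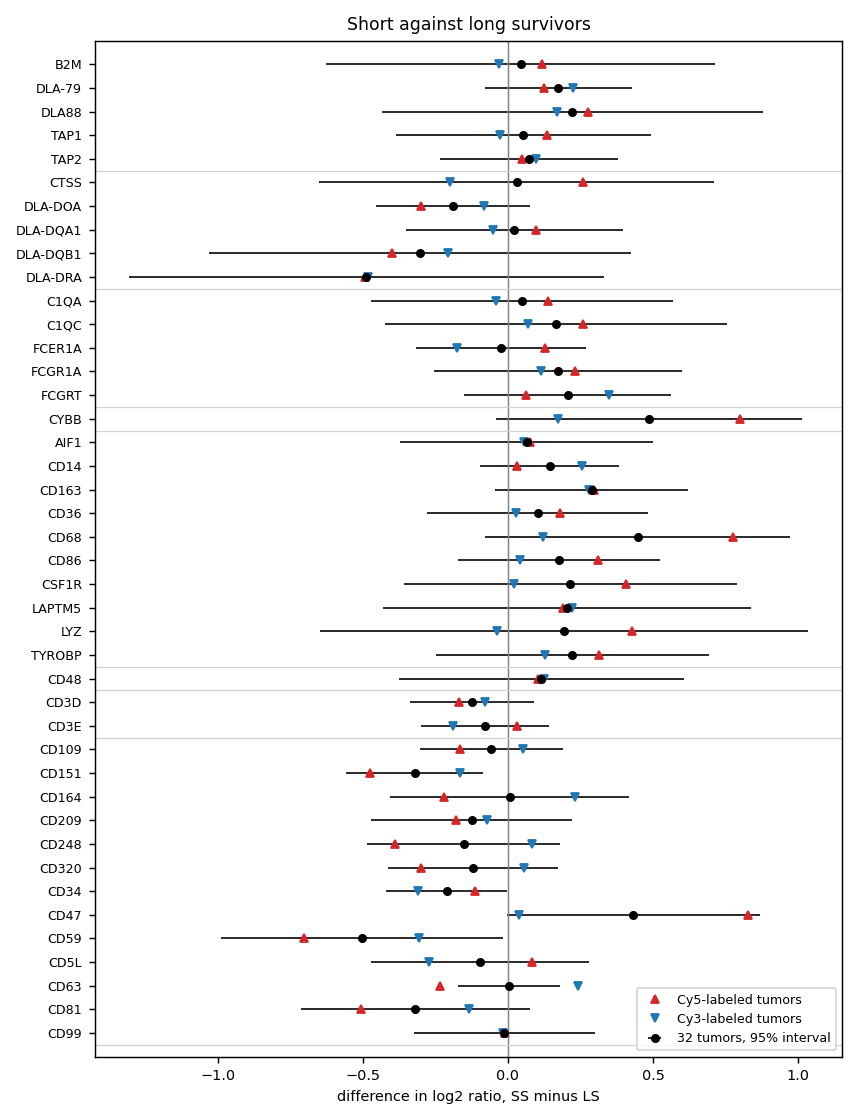
Difference in log2 ratio, SS minus LS, for the 42 genes in role order from class I at the top. Black points with bars give the difference over 32 tumors and its 95% interval from limma, and triangles the difference within the Cy5 (red, upward) and Cy3 (blue, downward) arrays. Nearly all intervals include 0, except those of CD151, CD59 and CD34, and the black points of the myeloid genes lie right of 0.

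With the dye orientation as a term in the model, 0 of the 42 genes passed, beside 0.35% of features. At an unadjusted p of 0.05 there were 4 (CD151, CD34, CD59 and CD47), beside 14.1% of features. Within the 16 Cy5 arrays alone, 1 of the 42 passed by limma, beside 6.34% of features (5.67% higher in SS). This was CD47, which lay between -0.07 and 0.75 in the 8 SS tumors and between -1.46 and 0.37 in the 8 LS tumors (difference 0.83, SE 0.25, limma adjusted p = 0.0749). On the Cy3 arrays CD47 differed by 0.04 (SE 0.31, limma adjusted p = 0.956) and 0 of the 42 genes passed, beside 10.2% of features, with 3 at an unadjusted p of 0.05, beside 23.1%. The test of whether the difference of CD47 changed between the orientations gave a limma adjusted p of 0.271. That test passed for 1 of the 42 genes, beside 11.6% of features (1.79% in its direction), and it was CD63, a tetraspanin of late endosomes. CD63 was lower in SS than in LS on the Cy5 arrays (means -0.08 and 0.15) and higher on the Cy3 arrays (0.14 and -0.11), so that the difference of -0.23 on Cy5 was 0.47 lower than that of 0.24 on Cy3 (SE 0.15, limma adjusted p = 0.0496).

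**Figure D5:**
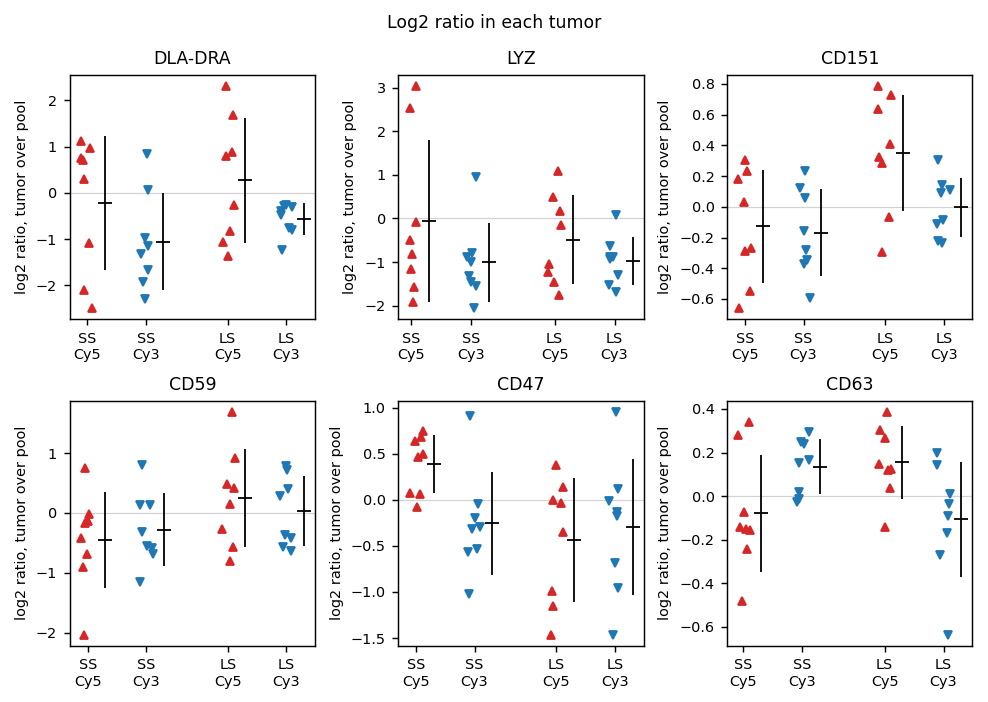
Log2 ratio of tumor over pool in each tumor for 6 genes, by survival group and dye of the tumor (8 tumors in each column, red upward triangles for Cy5 and blue downward for Cy3). Black dashes and bars give the mean and SD of each column. SS and LS overlap in all 6 panels, CD47 is shifted upward in SS on the Cy5 arrays, and the SS and LS columns of CD63 exchange order between the dyes.

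Between the dye orientations, 22 of the 42 genes differed at a limma adjusted p of 0.10, beside 65.6% of features. Of these genes, 19 were higher and 3 lower on the Cy5 arrays (31.8% and 33.8% of features). The median Cy5 minus Cy3 difference was 0.30 over the 42 genes and 0.001 over all features. C1QA ran from -0.46 over 0.32 to 1.80 on the Cy5 arrays and from -1.02 over -0.60 to -0.08 on the Cy3 arrays, a difference of 1.02. DLA-DQB1 (0.89), DLA88 (0.86), CD5L, a macrophage-secreted protein (0.85), DLA-DRA (0.83, adjusted p = 0.0578) and CSF1R (0.82) followed among the genes that passed. DLA-DQA1 (-0.72), DLA-79 (-0.44) and CD109 (-0.32) were lower on the Cy5 arrays. LYZ (0.72) did not pass, with an adjusted p of 0.12. The spread differed as well: the median SD of the 29 genes assigned to a role was 0.710 on the Cy5 arrays and 0.401 on the Cy3 arrays, with 25 of the 29 wider on Cy5 (86.2%, beside 62.1% of all features). DLA-DRA in LS tumors, for instance, spanned -1.36 to 2.32 on Cy5 and -1.24 to -0.27 on Cy3. Each tumor was labeled with a single dye, so the tumors and the dye cannot be told apart in these differences or in this spread.

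The other genes of antigen processing, 13 of 25 listed having a probe, were compared in the same fit. None of the 13 passed between SS and LS in either direction, and 8 were higher and 5 lower in SS, with a median of 0.02. RFXAP, a subunit of the factor that binds class II promoters, was 0.27 higher in SS (SE 0.08, limma p = 0.0023, adjusted p = 0.52), and the interferon-induced proteasome subunits PSMB8 and PSMB9 differed by 0.20 and -0.03. Of 13 leukocyte genes outside the 42, 0 passed and 11 were higher in SS (median 0.09), with the platelet and leukocyte gene PLEK at 0.53 (SE 0.21, limma p = 0.0163, adjusted p = 0.636). The marker lists of muscle, endothelium, osteoclasts and osteoblasts had no passing gene in this fit either. The 12 skeletal muscle genes had a median of -0.27 with 11 lower in SS and 2 at an unadjusted p of 0.05 (DES and MB), the 5 endothelial genes a median of -0.11 with 4 lower, and the 3 osteoclast genes a median of 0.45 with 3 higher. Of the 5 osteoblast genes 3 were lower and 1, PHEX, reached an unadjusted p of 0.05 (difference 0.31). Their part in the differences of the 42 genes was not tested. Among all 5246 named genes, 2969 were higher and 2277 lower in SS.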

How the data were processed

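The deposited values are log2 ratios of tumor over the pool of 32 tumors. Per the methods, the authors marked defective spots, applied a Lowess fit per print tip to each dual-color cDNA array, took logarithms, and turned the sign on arrays of the swapped orientation. The base of the logarithm, the image software and any background correction are not given in the sources used here, and base 2 was assumed. The direction follows the sign change stated in the methods, and the lowest correlation between arrays of an orientation was 0.0237 for Cy5 and 0.00256 for Cy3.

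The table held 22176 probes with 5 missing values. Of these, 7694 had a gene symbol in the platform annotation and 14482 had none. Probes of a gene were averaged, giving 19728 features. SS and LS (16 arrays each) were compared by limma 3.58.1 in R 4.3.3 without covariates, as in the 2-class analysis of the study, with Benjamini-Hochberg adjustment over all features and a threshold of 0.10. Orientation was tested with survival group as covariate, and the interaction with both. Correlations used 100000 permutations in NumPy 2.4.6, with ranks from SciPy 1.17.1, on values centered by group and orientation, adjusted over 24 tests. The scripts were tested on simulated data. Alternatives were the orientation as a block, each orientation alone, single probes, other scalings, array weights, robust variances, sex and histological components as covariates, Significance Analysis of Microarrays with 100 permutations, and each array left out.

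The genes and lists were chosen with earlier results of these data known. Described with values were the genes with the smallest p or largest difference and those with the largest and smallest spread. So were those with the largest difference between dye orientations, those that passed a test, and up to 4 of each role. Each array is a tumor of another dog, so p-values include the spread between dogs. The number of arrays limits the precision.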

Additional observations from a re-analysis of the deposited data

Results flagged for a closer look

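The difference between survival groups changed with the dye orientation for CD63. SS minus LS was -0.23 on the Cy5 arrays and 0.24 on the Cy3 arrays, and the interaction of -0.47 (SE 0.15, limma adjusted p = 0.0496) passed in each of the 32 fits that left out an array. Over all 32 arrays the difference was 0.00 with a 95% interval of -0.17 to 0.18. CD63 was 1 of 2285 features that passed this test, and the same tumors were not hybridized in both orientations.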

How the results depend on the processing

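Between SS and LS the count of passing genes stayed at 0 of 42 under the orientation block, single probes (0 of 53), both scalings, array weights, robust variances, the clinical covariates and Significance Analysis of Microarrays, and it was 1 (CD47) on the Cy5 arrays alone and 0 on the Cy3 arrays alone. Leaving out each array gave 0 to 0. Of all features, 0.35% passed under the orientation block, 6.34% on the Cy5 arrays alone and 10.2% on the Cy3 arrays alone. The shares of all features under the other settings are not given here. The median difference of 0.05 ranged from -0.04 (without tumor 4) to 0.10 when an array was left out and was -0.007 with arrays scaled to equal median absolute deviation, 0.002 with quantile normalization and -0.003 with array weights, so its sign is not settled. Of the 42 genes, 28 kept a single sign under the 8 settings compared for single genes. The count by dye orientation was 22, beside 65.6% of features. It was 24 and 31 under the scalings and 21 to 25 without an array, settings for which the share of features is not given here. The interaction stayed at 1 gene, 1 to 1 without an array, and its median of 0.02 ranged from -0.11 to 0.19. Of the 24 pair correlations, 16 passed by r in place of 18 and 17 by rho in place of 16 after scaling. No paired analysis was possible because each tumor has a number of its own.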
